A study of Homo sapiens with 4 samples.

Results

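TXNIP, the ARRDC genes and the MondoA family were followed in A549 cells, a human lung adenocarcinoma line, after exposure to embelin, a plant benzoquinone known as an inhibitor of the apoptosis inhibitor XIAP. The set held 8 genes (TXNIP, ARRDC1, ARRDC2, ARRDC3, ARRDC4, MLXIP, MLXIPL and MLX), chosen by name and by RefSeq transcript from the array's probes, and 18 of the array's 50238 probes measured them. The groups were 2 untreated control samples and 2 samples given embelin at 15 µM, all collected at 4 h, and every culture had first been moved to medium low in serum. RNA of each sample was labelled with Cy3 and hybridized to 1 array of an Agilent slide. The labels number the samples as replicates without naming separate cultures, so the p-values measure the spread between these samples only, which may be technical. The comparison asked which genes embelin changed early in A549 cells.

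TXNIP and the ARRDC proteins are the alpha-arrestins, adaptors that lead membrane proteins to ubiquitin ligases and to endocytosis. TXNIP also binds reduced thioredoxin and restrains glucose uptake by acting on the glucose transporters. MLXIP (MondoA) and MLXIPL (ChREBP) are transcription factors that sense phosphorylated sugars, pair with MLX and bind carbohydrate response elements, which are paired E-boxes set apart by a short spacer. TXNIP and ARRDC4 are their best known targets in many cell types.

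The promoters of TXNIP and ARRDC4, the sensors' targets, and of ARRDC3, the relative that rose most, are shown to compare their E-box letters. The sequences are the 250 bases before the first listed start of each gene in RefSeq (GRCh38.p14), 5′ to 3′ on the gene's own strand, at chr1:145996580-145996829 (minus strand), chr15:97960453-97960702 (plus strand) and chr5:91383318-91383567 (minus strand). Capitals mark CACGTG, the spaced pair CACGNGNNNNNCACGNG (N for any base) and CCAAT, each searched on both strands.
TXNIP: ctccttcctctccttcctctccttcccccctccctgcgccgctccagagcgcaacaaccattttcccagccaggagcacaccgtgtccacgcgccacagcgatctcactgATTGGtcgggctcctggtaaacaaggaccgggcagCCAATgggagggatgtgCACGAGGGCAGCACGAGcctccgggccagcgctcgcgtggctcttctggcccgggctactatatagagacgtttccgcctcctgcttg
ARRDC4: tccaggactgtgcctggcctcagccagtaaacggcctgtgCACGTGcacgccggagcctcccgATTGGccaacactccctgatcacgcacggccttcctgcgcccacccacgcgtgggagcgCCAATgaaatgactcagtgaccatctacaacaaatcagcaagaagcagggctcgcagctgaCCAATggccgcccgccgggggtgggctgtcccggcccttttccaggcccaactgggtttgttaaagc
ARRDC3: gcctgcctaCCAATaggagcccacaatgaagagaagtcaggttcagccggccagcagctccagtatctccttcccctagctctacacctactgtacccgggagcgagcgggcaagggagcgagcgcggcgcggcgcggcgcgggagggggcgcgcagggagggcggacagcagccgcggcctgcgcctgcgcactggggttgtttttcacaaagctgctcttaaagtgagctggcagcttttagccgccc

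The TXNIP stretch held 1 spaced pair, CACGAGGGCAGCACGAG, from 88 to 72 bases before the start, and 2 CCAAT boxes on the upstream side of it. ARRDC4 held 1 CACGTG, from 210 to 205 bases before the start, and 3 CCAAT boxes. ARRDC3 held neither E-box form and 1 CCAAT box. Over the windows from 250 bases before to 50 after a start, the spaced pair was found in 0.057% of 35116 RefSeq promoters, CACGTG in 7.26% and CCAAT in 34.6%. All 8 genes matched RefSeq promoters, 11 in all. MLX also held a CACGTG, from 50 to 45 bases before its start. The spaced form was written after the TXNIP sequence had been seen. The letters are a description of these windows and the arrays measured no binding there.

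Embelin treated cells had a lower TXNIP signal and a higher ARRDC3 signal, and the other members differed less between the groups. Signals are normalized log2 intensities, and each difference is embelin minus control on that scale. A gene was tested where a probe was well above background, by the scanner software's call, on both arrays of at least 1 group, which held for 15 of the 18 probes and for 6 of the 8 genes. TXNIP and ARRDC4 did not pass that filter. Of the 6 genes tested, ARRDC3 alone passed limma's test at an adjusted p under 0.05, where 1.81% of all 17649 genes passed, 1.25% as rises and 0.561% as falls. ARRDC3 was also the only one past 2-fold with an unadjusted p under 0.05, a rule that 8.26% of all genes met. The median difference was 0.17 over the 6 genes and -0.06 over all genes. At 4 arrays, an exact two-sided permutation test cannot give a p below 0.333.

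**Figure D1:**
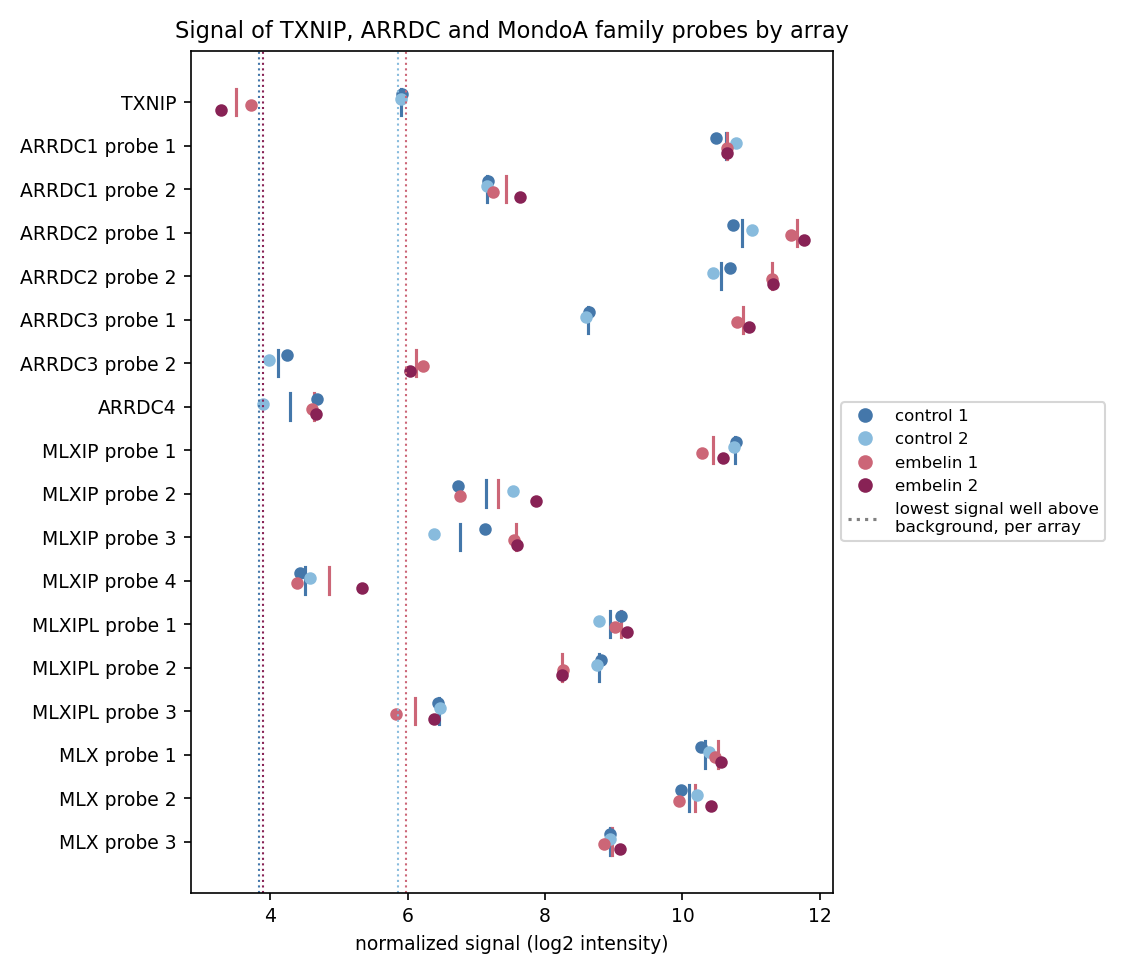
Normalized signal (log2 intensity, horizontal axis) of each of the 18 probes on the 4 arrays, with short vertical lines at the group means and dotted lines at the lowest signal well above background on each array. The 2 control signals of TXNIP lie at 5.91 and 5.90 and its embelin signals at 3.72 and 3.28, while both ARRDC3 probes lie higher on the embelin arrays.

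TXNIP was measured by 1 probe, a 60-base oligonucleotide whose first 30 bases were tccacccttttctgagagttattacagcca. Its signal was 5.91 and 5.90 on the control arrays against 3.72 and 3.28 on the embelin arrays. Both embelin values lay below both control values, and the measured difference was -2.41. TXNIP was well above background on 1 of 2 control arrays (control 1) and on 0 of 2 embelin arrays. Of the embelin values 1 was a surrogate set by the scanner software, so the embelin level is only roughly bounded from above. Set against the mean of the 2 embelin arrays' lowest signals well above background, the mean of both control arrays gives a fall of 1.96-fold. That value counts control 2, which was not well above background. Such a lowest signal is not a strict limit for 1 probe. On control 2 TXNIP, at 5.90, lay above the lowest signal well above background there (5.85) and was still not called. The arrays differed in background. The lowest signal well above background was 3.83 on control 1 and 3.89 on embelin 2, but 5.85 on control 2 and 5.97 on embelin 1. Between control 1 and embelin 2 the TXNIP difference was -2.64, or 4.06-fold with embelin 2 set at its lowest signal well above background. Between control 2 and embelin 1 it was -2.18, and no fold can be given because the control signal lay below the limit of the embelin array. Without the filter, the limma fit gave TXNIP an unadjusted p of 0.0018 and an adjusted p of 0.383, and no gene on the array passed in that fit. With normexp background correction, which added an offset of 50 to every signal, the difference was -0.85.

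ARRDC3, an alpha-arrestin that recruits NEDD4 family ligases to membrane proteins such as integrin beta4, rose in embelin treated cells. It was measured by 2 probes. Probe positions were not used, so whether their 60 bases overlap on the transcript was not tested. Their first 30 bases, which differ, are shown.
ARRDC3 probe 1: agcaaaacaaagtgcaatattaaatgtttg
ARRDC3 probe 2: acacagaattacactgaagaagtagagtat
Probe 1 gave 8.65 and 8.59 in the controls and 10.80 and 10.97 after embelin, with all 4 arrays well above background. The groups did not overlap, and the difference was 2.26 ± 0.17 (SE, n = 2 arrays per group), or 4.79-fold, with an adjusted p of 0.0264 in limma. Probe 2 gave 4.25 and 3.98 in the controls, 1 of 2 well above background, and 6.22 and 6.03 on the embelin arrays. The measured difference of probe 2 was 2.01, but it passed the filter only through the embelin arrays, where it was bright, so it is given without a test and is no independent support. In the fit over all probes, where 1.08% of 26145 probes passed, probe 1 had an adjusted p of 0.0315 in limma. Between the arrays of like background, probe 1 differed by 2.32 (control 1 and embelin 2) and by 2.20 (control 2 and embelin 1), and probe 2 differed by 1.78 between control 1 and embelin 2, both well above background.

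The adjusted call of ARRDC3 rested on the full fit. It was lost when any of the 4 arrays was left out (difference 2.18 to 2.35, adjusted p 0.0667 to 0.176), with array background as a block (adjusted p 0.182), with slide position as a covariate (0.0983) and without the filter on dim probes (0.337). In each of those fits, limma passed 0 of all genes after adjustment, though 2131 to 3053 genes had an unadjusted p under 0.05, so the same holds for every other adjusted call named here. Slide position was not the same in both groups, with controls in places 4 and 1 and embelin in places 2 and 3.

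ARRDC2, a less studied alpha-arrestin, was higher on both embelin arrays by both of its probes without passing the test. Probe 1 gave 10.73 and 11.01 in the controls and 11.58 and 11.77 after embelin. The difference was 0.80 ± 0.19 (SE), with a limma adjusted p of 0.138 and a 95% interval of 0.27 to 1.34. Probe 2 gave 10.69 and 10.44 against 11.30 and 11.31, a difference of 0.74 (limma adjusted p = 0.168 over all probes). The groups did not overlap by either probe.

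ARRDC1, which drives the budding of vesicles from the plasma membrane together with TSG101, showed overlapping groups by its brighter probe. That probe gave 10.48 and 10.78 on the control arrays and 10.65 on both embelin arrays, a difference of 0.02 ± 0.19 (SE, limma adjusted p = 0.964, 95% interval -0.49 to 0.53). The second probe gave 7.16 and 7.15 against 7.24 and 7.63, a difference of 0.28 with a limma adjusted p of 0.570 over all probes.

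ARRDC4, the closest relative of TXNIP and like it a MondoA target, was too dim to be tested. Its probe, which begins gcacagtaagaaacaataggcaagcgttat, gave 4.68 and 3.90 in the controls and 4.60 and 4.66 after embelin. The groups overlapped, the measured difference was 0.34, and 1 of 2 arrays of each group was well above background. Between the low-background arrays, control 1 and embelin 2, the difference was -0.02. Both of those signals were well above background, and the difference of -2.64 that TXNIP showed between the same arrays was not seen for ARRDC4 there. On control 2 and embelin 1 ARRDC4 was not well above background.

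**Figure D2:**
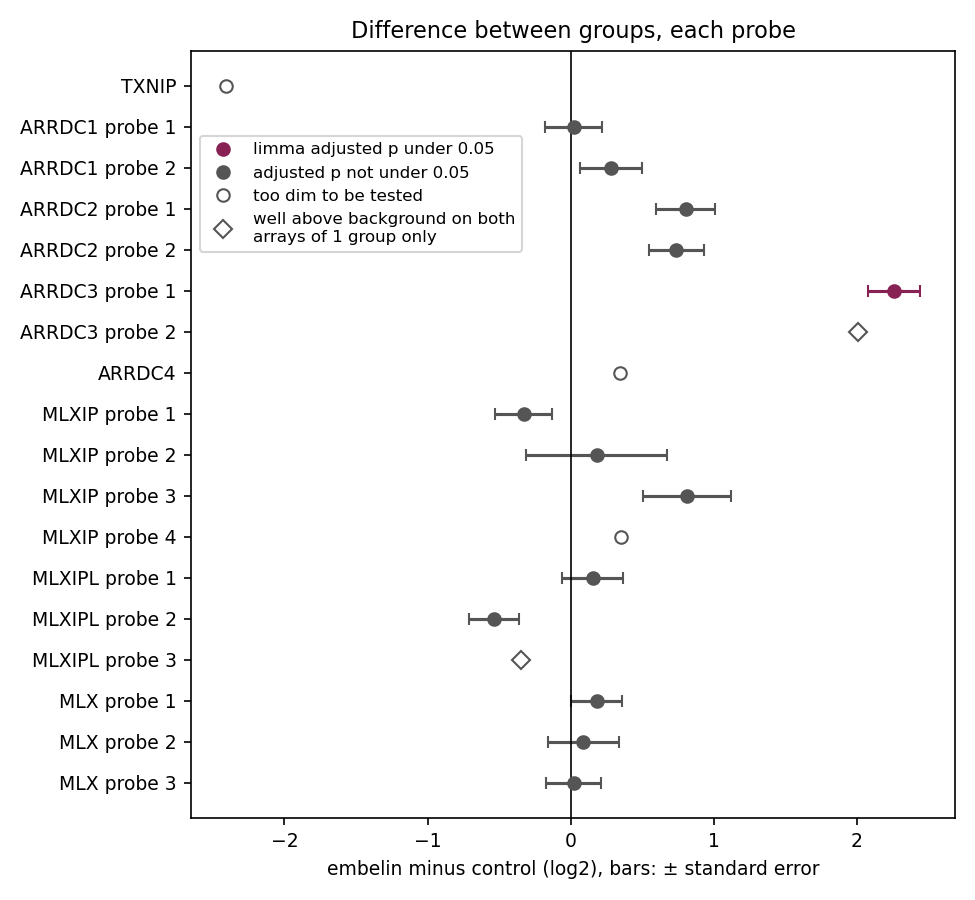
Embelin minus control (log2, horizontal axis) for each of the 18 probes, with the standard error of the limma fit over all probes. ARRDC3 probe 1 passed at 2.26. The open diamonds are 2 probes, ARRDC3 probe 2 at 2.01 among them, that stood well above background throughout in 1 group only and are drawn without an error or a call, the open circles are the 3 probes too dim to be tested, and the TXNIP circle stands at -2.41.

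None of the sensor genes passed the test, and the probes of MLXIP and of MLXIPL differed in sign. MLXIP, the sensor found in most tissues, gave 10.78 and 10.76 in the controls and 10.28 and 10.59 after embelin by its brightest probe. That difference was -0.33 ± 0.19 (SE, limma adjusted p = 0.424, 95% interval -0.85 to 0.19). The other 3 MLXIP probes differed by 0.18, 0.81 and 0.35, the last of them too dim to be tested, so the sign depends on the probe and turned to 0.22 with the mean over the tested probes. MLXIPL, the sensor known from liver and fat, gave 9.11 and 8.79 in the controls and 9.02 and 9.19 after embelin. Its difference was 0.15 ± 0.20 (SE, limma adjusted p = 0.735, 95% interval -0.40 to 0.71), while its other probes, which carry another transcript's accession, differed by -0.54 and -0.35. The mean over the MLXIPL probes was -0.24, again with the opposite sign. MLX, the partner of both, gave 10.28 and 10.38 against 10.47 and 10.56, a difference of 0.18 ± 0.16 (SE, limma adjusted p = 0.602, 95% interval -0.26 to 0.63), and 0.09 and 0.02 by its other probes. A p above the threshold does not show that these genes were alike in both groups.

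Counted by whether the 2 groups overlapped, 3 of the 6 genes tested (ARRDC2, ARRDC3 and MLX) were higher on both embelin arrays, a pattern that 21.1% of 17298 genes with a value on all arrays showed. MLXIP alone was lower, where 30.7% were, and ARRDC1 and MLXIPL overlapped. Each gene was counted by its brightest probe, and other probes gave other results. The MLXIP probe at 0.81 and the second ARRDC1 probe were higher without overlap. Both other MLXIPL probes were lower without overlap, the dimmer kept only through the control arrays, and the other MLX probes overlapped.

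Genes around the family were counted in lists written from background knowledge, with earlier results of these data known. In the list of MondoA and ChREBP targets other than TXNIP and ARRDC4, 13 of 19 genes were tested. Of these, 11 were lower and 2 higher, and the median difference was -0.32. RGS16, counted among the lower genes at -0.58, passed the filter only through the control arrays, where it was brighter. ELOVL6, an elongase of fatty acids, was the 1 gene that fell by limma's test, from 10.87 and 10.94 on the control arrays to 9.22 and 9.23 on the embelin arrays (-1.68 ± 0.16, SE, adjusted p = 0.038). FASN, PNPLA3 and GPAM, genes of lipid metabolism named after their values were seen, differed by -1.21, -1.28 and -1.03 without passing limma's test (adjusted p = 0.164, 0.0543 and 0.0910). Other lipid genes of the list differed less, ACACA by -0.32, SCD by -0.22, ACLY by -0.18 and ME1 by -0.15. KLF10, named in the same way, differed by 1.42 (adjusted p = 0.114). None of the list's genes rose by that test, which 1.25% of all genes passed as rises and 0.561% as falls.

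The MXD proteins, MNT and MGA share MLX or its relative MAX as partner and mostly repress E-box genes. Of 6 genes tested in this group, 1 rose and 0 fell by limma's adjusted test, where 1.25% of all genes rose and 0.561% fell. The median was 0.69. MXD1 rose from 7.60 and 7.14 to 9.98 and 9.80, a difference of 2.52 ± 0.23 (SE, limma adjusted p = 0.0373). MXI1 (2.76, with the value of embelin 1 missing, so that limma used 3 arrays), MNT (1.40) and MXD3 (-1.42), named after their values were seen, did not pass limma's test at adjusted p of 0.0803, 0.0838 and 0.0768. Members of this group therefore stood on both sides of 0, and the other kept probe of MNT differed by 0.52.

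Glucose entry, which TXNIP restrains and whose product the sensors read, held HK2, the gene with the largest difference in the lists. Of 9 genes tested out of 14, 3 rose and 0 fell by limma's adjusted test, with a median of 0.22. Over all genes, 1.25% rose and 0.561% fell by that test. HK2, the hexokinase that phosphorylates glucose in growing cells, went from 6.61 and 6.42 to 12.18 and 12.41, a difference of 5.77 ± 0.19 (SE, limma adjusted p = 0.0204). SLC2A3 (GLUT3) went from 8.996 and 8.83 to 10.94 and 11.35, a difference of 2.24 ± 0.22 (SE, limma adjusted p = 0.0393). SLC2A1 (GLUT1), the transporter that TXNIP takes into the cell, went from 13.56 and 13.42 to 15.18 and 15.45, a difference of 1.83 ± 0.19 (SE, limma adjusted p = 0.0431). The other 6 genes tested did not pass.

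**Figure D3:**
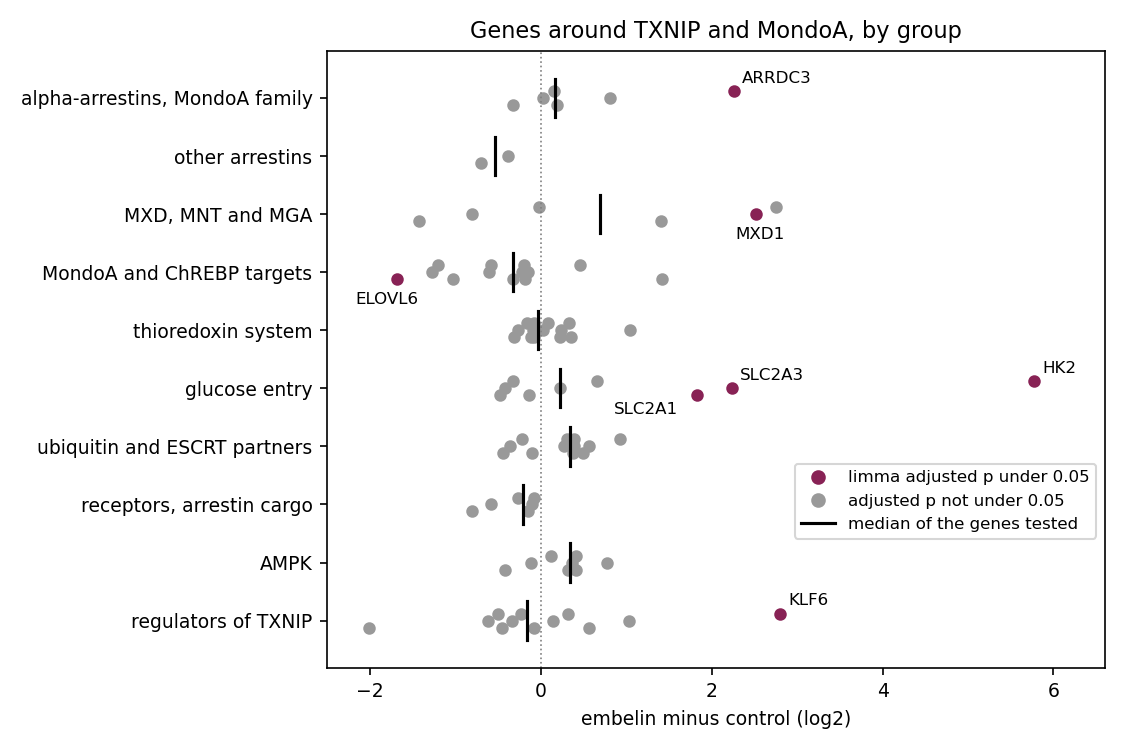
Embelin minus control (log2, horizontal axis) for every gene tested in the family and in 9 lists around it, with a black line at each list's median. Points past limma's adjusted threshold are named, HK2 standing farthest out at 5.77 and ELOVL6 alone on the negative side at -1.68.

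The thioredoxin system holds the redox partner of TXNIP. Of its 14 genes tested, 0 passed limma's adjusted test, and the median was -0.03. The rule of 2-fold with an unadjusted p under 0.05, which 8.26% of all genes met, was met by 1. TXN, the thioredoxin that TXNIP binds and named for that reason, gave 16.34 and 16.08 in the controls and 16.32 and 16.28 after embelin (0.09 ± 0.18, SE). The lowest unadjusted p were those of GLRX, a glutaredoxin, at 1.04 ± 0.17 (SE, limma adjusted p = 0.0786), and of SRXN1, a sulfiredoxin, at 0.36 ± 0.16 (SE, limma adjusted p = 0.321).

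Among 12 regulators of TXNIP, 1 rose and 0 fell by limma's adjusted test, where 1.25% of all genes rose and 0.561% fell. The median was -0.16. KLF6, a Krüppel-like factor, went from 12.67 and 12.47 to 15.40 and 15.36, a difference of 2.80 ± 0.17 (SE, limma adjusted p = 0.0225). By the rule of 2-fold with an unadjusted p under 0.05, which 8.26% of all genes met, 2 were higher and 1 was lower. Besides KLF6 these were FOXO3, a forkhead factor, at 1.03 (limma adjusted p = 0.227), and PPARA, a nuclear receptor for fatty acids, at -2.01 (limma adjusted p = 0.0568), both named after their values were seen. PPARA gave 7.18 and 7.35 in the controls and 4.95 and 5.56 after embelin, where 1 of 2 arrays was well above background. PPARA therefore passed the filter only through the control arrays, as did USF1, which differed by -0.08.

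By its brightest kept probe, no gene of the other 4 lists passed limma's adjusted test, nor the rule of 2-fold with an unadjusted p under 0.05. Another kept probe differed by 1.81 for PRKAA2, against 0.32 by the brightest, and by 1.60 for WWP2, against -0.45. Of the ubiquitin ligases and ESCRT proteins that ARRDC proteins bind, 8 of 12 genes tested were higher and the median was 0.34. The lowest unadjusted p were those of HECW2 at 0.93 and NEDD4 at 0.57 (limma adjusted p = 0.196 and 0.2496). HECW2 passed the filter only through the embelin arrays, where it was brighter, so its p is no support for a rise. All 6 genes tested among the receptors and transporters known as ARRDC or TXNIP cargo were lower, with a median of -0.21. Only 2 of them were lower without overlap of the groups, where 30.7% of genes with a value on all arrays were. INSR, at -0.15, passed the filter only through the control arrays, where its mean was higher. SLC11A2, an iron transporter, differed by -0.58 (limma adjusted p = 0.330). Of the AMPK subunits and upstream kinases, 6 of 8 tested were higher, with a median of 0.34, PRKAG2 at 0.77 and STK11 at -0.41 (limma adjusted p = 0.143 and 0.289). The beta-arrestins ARRB1 and ARRB2 differed by -0.70 and -0.38 (limma adjusted p = 0.272 and 0.374). ARRB1 passed the filter only through the control arrays, where it was brighter. The other 3 genes of the arrestin list were too dim to be tested.

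No genes like TXNIP or ARRDC4 in pattern are named, since 3 of the 4 TXNIP signals and 2 of the 4 ARRDC4 signals were not well above background. For ARRDC3, chosen after its values were seen, the 5 closest genes over the 4 arrays were NKAIN1, FOSL1, GRB10, RELT and SLC2A3. They lay at distances of 0.158 to 0.195, the Euclidean distance between log2 signals centred on the control mean, among 11521 genes well above background on all arrays. With 4 arrays many genes share any one pattern, so likeness here is only a description.

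All 8 epithelial and A549 markers, among them KRT8, KRT18 and EPCAM, were well above background on all 4 arrays, with differences of -0.56 to -0.10 and no call by limma. None of 4 endothelial and 4 erythroid markers was bright enough to be tested. Of 6 leukocyte markers 4 were tested, with differences of -0.60 to 1.35, and of 6 fibroblast markers 2 were, COL1A1 at 1.30 and PDGFRA at 1.37. CD3E, ITGAM and PDGFRA passed the filter only through the embelin arrays, where they were brighter. None of the markers tested passed limma's adjusted test, and PTPRC and DCN, which define those cells, were too dim to be tested. Their part in the results was not tested. In whole cell RNA, fewer cells that make a transcript and less of it per cell cannot be told apart.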

How the data were processed

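RNA of 2 control and 2 embelin treated A549 samples was hybridized to 1 Agilent slide (4 arrays, 1 colour, 1 scan). The authors deposited intensities from the scanner software, Feature Extraction, whose version the file headers give as 10.7.3.1; they are background subtracted and detrended but not normalized between arrays, and a table of linear probe intensities with 75th percentiles of 589 to 726, also not normalized between arrays, which was used here as an alternative only.

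Outlier spots were left out and the linear intensities of a probe's spots averaged. The averages were then scaled to equal 75th percentiles (601 to 739 before scaling), taken over all spots other than controls. They were given a floor of 1 and turned into log2 values. Outlier spots were at first left out of the percentile too, which was changed before any fit because these spots are mostly bright. Between 25265 and 33532 of 50238 probes per array were well above background, no spot was saturated, and precision is limited by having only 4 arrays. The brightest kept probe stood for a gene. Groups were compared in R 4.3.3 with limma 3.58.1 (lmFit, eBayes), with Benjamini-Hochberg adjustment over 17649 genes or transcripts, and separately over probes. The fit was tested on simulated data. A spot the software does not find above background carries a surrogate value, which makes differences between dim signals depend on background.

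The members, lists and tests were chosen with earlier results of these data known. Named were all members and, per list, the 3 largest differences among the genes that passed or the 2 lowest unadjusted p where none did, while the 5 nearest genes in pattern to TXNIP and ARRDC4, which the rule also covers, are left out because those signals were too dim; others are said to be named after their values were seen. A gene covered by this rule is counted but not reported here. Alternatives were normexp background correction (offset 50), quantile normalization, the deposited table, no filter on dim probes, a filter on all 4 arrays, eBayes with trend and robust, the methods' t-test, blocks for replicate number and array background, slide position, other uses of a gene's probes, and leaving out each array. Probe positions are not used here, and no gene coordinates are given beyond the promoters.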

Additional observations from a re-analysis of the deposited data

How the results depend on the processing

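The ARRDC3 difference of 2.26 kept its direction under all alternatives run and its limma call under 7 of 16. It kept the same size of 2.26 but lost the call without the filter on dim probes (adjusted p = 0.337), with the methods' t-test (0.157), with the replicate block (0.0791), with array background as a block (0.182) and with slide position as a covariate (0.0983), and leaving out 1 array gave 2.18 to 2.35 with no call. With 1 array left in a group, limma assumes that it varies like the other group. The count of members called went from 1 to 0 in those same fits (0 to 0 with 1 array left out). The count of member probes called, 2 in the fit over all probes (both of ARRDC3, the dimmer one kept only through the embelin arrays), was 1 with normexp, quantile normalization, the deposited table, the filter on all 4 arrays and eBayes with trend and robust. It was 0 without the filter, with the t-test, under the replicate block, under the background block and with position, and 0 to 0 with 1 array left out. The TXNIP difference of -2.41 was -0.85 with normexp and -2.85 with quantile normalization; the cause was not tested. The MLXIP and MLXIPL differences reversed to 0.22 and -0.24 with the mean over probes, and with 1 array left out MLXIPL ranged from -0.0081 to 0.32 and ARRDC1 from -0.12 to 0.17, the negative values being those without control replicate 2 and without control replicate 1. ARRDC4, which was not tested, went from 0.34 to -0.045 without control replicate 2 and to 0.73 without control replicate 1.

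Over all genes, the 320 calls became 699 with normexp, 159 with the deposited table, 764 with the filter on all 4 arrays and 1061 with eBayes trend and robust. They became 0 without the filter, with the t-test, under the replicate block, under the background block and with position, while 2345, 2737, 3743, 2759 and 3053 genes had an unadjusted p under 0.05 in those fits against 3442 as reported. They were 0 to 0 with 1 array left out, where 2131 to 3052 genes had such a p. Genes called lower were 99 as reported and 63 with quantile normalization, 33 with the deposited table and 56 with the mean over probes. Replicate numbers were shared between groups, but the labels do not say that equal numbers pair the samples. The deviations of control 1 and embelin 1 correlated at 0.175, which with 2 pairs cannot tell paired samples from unpaired ones. The values reported are those without the block, and no gene passed with it. Signal over background limits TXNIP and ARRDC4.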
